A study of Mus musculus with 7 samples.

Results

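The histone mark H3K18La, a lactyl group on a lysine of histone H3, was followed at the genes that encode the extracellular matrix and its integrin receptors in the postnatal mouse retina. The set took in every peak of a gene whose symbol begins with Col and a digit, Lama, Lamb and a digit, Lamc, Itga, or Itgb and a digit, together with Fn1, Nid1, Nid2, Hspg2 and Agrn. It held 567 of the 108253 peaks of the merged peak set and 78 of the 25400 genes to which peaks were assigned. Of these peaks, 67 lay in promoters (1000 bases before to 500 bases after a transcript start) and 500 lay elsewhere, and 47 genes had a promoter peak. A further 12 peaks of 2 genes named for binding proteins, Col4a3bp and Itgb3bp, were left out. Each peak belonged to its nearest annotated gene, so a peak between genes carries a gene's name by distance alone.

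The libraries came from whole retinas of C57BL/6J mice that carried no further allele and received no agent, and they stood at postnatal days 4 (P4, 2 libraries), 10 (P10, 2 libraries) and 28 (P28, 3 libraries). Retinas were dissociated into single cells and each CUT&Tag assay used 500000 cells. In CUT&Tag an antibody against the mark brings a tethered enzyme to it, so that sequenced fragments pile up there. The labels and the study's methods name different tethered enzymes. The replicates were called biological, but no label said how many animals stood behind a library, so the p-values below measure the spread between these libraries. In such bulk samples, fewer cells that carry the mark and less mark per cell cannot be told apart.

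Depth differed 41.4-fold between libraries, from 199970 to 8274373 reads in peaks. The member peaks held 1940 and 1566 reads at P4, 723 and 2533 at P10, and 5601, 28946 and 11258 at P28. Of the 67 member promoter peaks, 22 had 3 reads or fewer in each P4 library, so single levels at P4 and P10 were coarse. Levels are given as RPKM, reads scaled by the length of the peak and by a normalized library size, which allows comparison between peaks of different length. Changes are differences of log2(RPKM + 1), which understates the change of weak peaks, and a peak was called at a limma adjusted p under 0.01 over all peaks. The share of reads in peaks was 17.0% ± 0.93 at P4 (SD, n = 2) and 50.1% ± 7.37 at P28 (SD, n = 3), so scaling to reads in peaks in place of the authors' library size lowers P28 against P4 at every peak. Batch 2 held a single library, P28 replicate 1.

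The extracellular matrix is a meshwork of secreted proteins around cells, and its thin sheets, the basement membranes, are built on laminins and network-forming collagens. Laminins are trimers of an alpha, a beta and a gamma chain, type IV collagens form the other network, and nidogens, perlecan and agrin tie the networks together and to cells. Integrins are receptors made of an alpha and a beta chain that grip laminin, collagen or fibronectin from the cell surface. In the retina these proteins form the inner limiting membrane against the vitreous, the sheath of the vessels and the matrix below the pigment epithelium, and fibrillar collagens fill the vitreous itself.

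Promoter sequences are shown first for 5 of the genes named by rule, to set large beside small changes. Only named genes whose promoter peak contained the start site of a RefSeq promoter (GRCm38.p6) were considered, so members with larger or smaller changes are not among them. The 250 bases before the start are printed 5′ to 3′ on the gene's strand, with the motif GGGCGG or its complement CCGCCC, the GC box, in capitals. Col5a3 (chr9:20815068-20815317, minus strand), Itgb5 (chr16:33829415-33829664, plus strand) and Itga3 (chr11:95076715-95076964, minus strand) had the largest increases among those considered. Col4a1 (chr8:11312827-11313076, minus strand) and Lama5 (chr2:180225860-180226109, minus strand) had the smallest changes among those considered.
Col5a3: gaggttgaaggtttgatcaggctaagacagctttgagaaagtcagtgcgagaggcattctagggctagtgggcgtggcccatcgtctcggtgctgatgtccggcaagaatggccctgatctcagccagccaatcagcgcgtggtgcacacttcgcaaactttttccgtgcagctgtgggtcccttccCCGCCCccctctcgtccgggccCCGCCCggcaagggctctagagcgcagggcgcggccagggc
Itgb5: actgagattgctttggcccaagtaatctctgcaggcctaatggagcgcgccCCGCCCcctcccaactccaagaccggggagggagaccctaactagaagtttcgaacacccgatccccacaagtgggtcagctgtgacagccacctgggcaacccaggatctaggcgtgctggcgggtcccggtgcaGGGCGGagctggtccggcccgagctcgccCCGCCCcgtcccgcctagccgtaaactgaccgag
Itga3: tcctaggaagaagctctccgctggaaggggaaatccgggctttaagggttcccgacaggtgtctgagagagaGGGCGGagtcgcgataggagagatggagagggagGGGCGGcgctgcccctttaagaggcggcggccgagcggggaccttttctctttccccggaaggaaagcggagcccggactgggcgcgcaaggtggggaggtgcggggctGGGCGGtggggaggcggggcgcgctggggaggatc
Col4a1: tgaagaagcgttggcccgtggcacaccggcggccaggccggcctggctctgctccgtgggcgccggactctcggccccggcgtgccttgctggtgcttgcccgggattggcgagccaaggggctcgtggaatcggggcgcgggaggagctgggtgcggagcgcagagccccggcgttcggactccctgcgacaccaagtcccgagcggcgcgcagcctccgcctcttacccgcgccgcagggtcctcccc
Lama5: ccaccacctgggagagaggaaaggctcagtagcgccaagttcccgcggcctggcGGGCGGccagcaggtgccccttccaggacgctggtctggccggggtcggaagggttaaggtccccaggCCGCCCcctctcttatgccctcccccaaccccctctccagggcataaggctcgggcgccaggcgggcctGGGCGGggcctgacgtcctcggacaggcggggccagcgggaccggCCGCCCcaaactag
The GC box occurred at 2 places before Col5a3, 3 before Itgb5, 3 before Itga3, 4 before Lama5 and 0 before Col4a1, and 32.7% of 32817 RefSeq promoters of this length held at least 1. GC content was 62.8% before Col5a3, 65.2% before Itgb5, 67.6% before Itga3, 72.4% before Lama5 and 74.4% before Col4a1, all above the median of 52.4%. The presence of these letters did not separate the large from the small changes among the 5.

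At P28 against P4, 5 of the 67 member promoter peaks rose (Lamc1, Col5a3, Itga5, Col26a1 and Itgb5) and 1, an internal start of Nid2, fell. Over all 17144 promoter peaks, 31.3% rose and 0.834% fell in this comparison. The median change of the member promoters was 0.47, against 1.26 over all promoters. The member median lay below the median of all promoters in all 17 settings tried, with differences from -0.996 to -0.52, while its own sign depended on the scaling. It was -0.57 with libraries scaled to their reads in peaks, -0.06 with median centring and -0.30 with quantile normalization, settings that moved the median of all peaks from 0.68 to -0.29, 0.16 and 0.09. The split of calls moved with it, from 5 higher and 1 lower to 0 and 9 with scaling to reads in peaks. None of the 5 rises was called there, while 8.3% of all promoters were called higher and 5.4% lower. With median centring the split was 5 and 2, beside 21% and 2.7% of all promoters. With quantile normalization it was 3 and 8, beside 17% and 5.2%. The member split was 14 and 4 with voom on reads, beside 48.9% and 3.11% of all promoters. With a batch term it was 3 and 0, beside 17.0% and 0.408%. Without P28 replicate 1, 2 or 3 it was 3 and 0, 2 and 1, and 2 and 0. In these fits 17.4%, 13.1% and 12.9% of all promoters were called higher. The number of members called fell without either P4 library and rose without either P10 library, fits that leave that age a single library.

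A count of promoter peaks whose libraries did not overlap needs no model, but it depends on the scaling of libraries. It was made on the authors' scaling alone. All P28 libraries lay above all P4 libraries at 29 of the 67 member promoters (43.3%), against 73.8% of all promoters. They lay below at 16 member promoters (23.9%), against 7.53% of all promoters. Among peaks assigned to a protein-coding transcript, 3 of 43 member promoters were called higher, against 3731 of 11100 over all genes. The share of promoter reads that fell in member promoters was 0.408% and 0.394% at P4, 0.254% and 0.289% at P10, and 0.207%, 0.217% and 0.209% at P28. Every P28 library thus lay below every P4 library on this share, which does not depend on the scaling of libraries. Over all member peaks the mean share of peak reads was 0.535% ± 0.0073 in the P4 libraries (SD, n = 2). In those of P10 it was 0.373% ± 0.015 (SD, n = 2), and 0.346% ± 0.0047 for P28 (SD, n = 3).

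**Figure D1:**
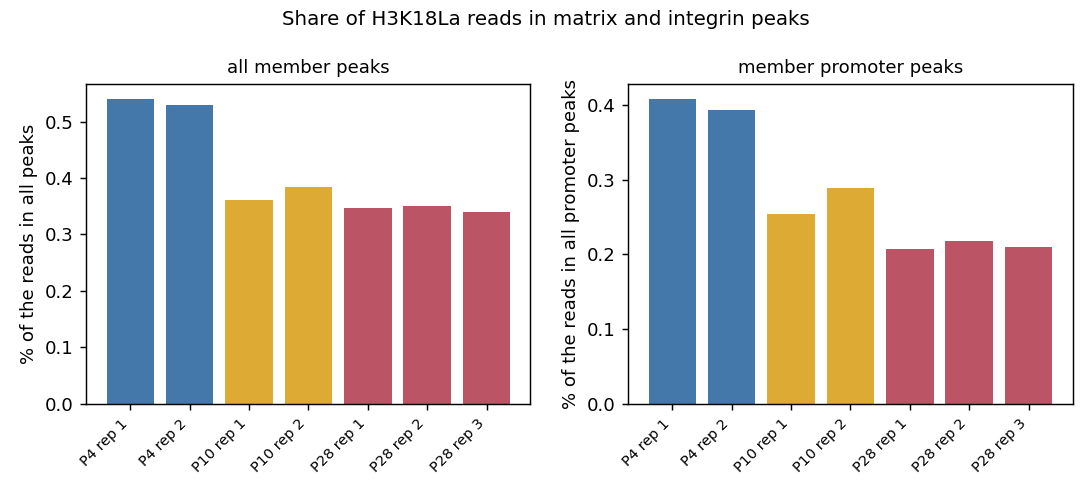
Share of H3K18La reads in matrix and integrin peaks in each of the 7 libraries, as a percentage of the reads in all peaks (left) and of member promoter reads among the reads in all promoter peaks (right). Bars are single libraries, coloured by age; on both panels the P4 libraries stand highest and the P28 libraries lowest, from 0.408% to 0.207% for promoters.

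**Figure D2:**
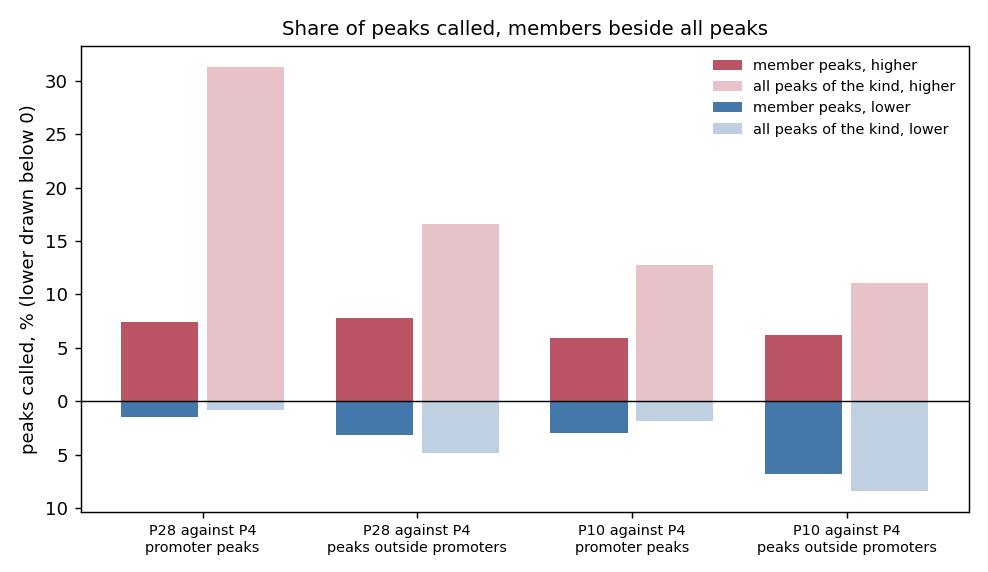
Percentage of peaks called higher (above 0) and lower (below 0) by limma, for member peaks (full colour) and all peaks of the same kind (pale), in P28 against P4 and P10 against P4. The widest gap is at promoters in P28 against P4, where 7.46% of the member peaks and 31.3% of all promoter peaks were called higher.

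Among laminin chains, 1 promoter rose and none fell, and it had the largest increase of all member promoters. Lamc1 encodes the gamma chain used by most basement membrane laminins. Its promoter peak (GRCm38, chr1:153331924-153333981, over the first exon) stood at 2.65 and 0.87 RPKM at P4, 4.39 and 12.6 at P10, and 13.8, 16.6 and 18.4 at P28. All P28 libraries lay above both P10 libraries, and these above both P4 libraries. The mean was 9.24-fold higher at P28 than at P4, on 15 reads at P4, and the change was 2.71 (SE 0.44, limma adjusted p = 0.0013). The call was lost without P4 replicate 1 (adjusted p = 0.0127) or P4 replicate 2 (adjusted p = 0.0328), which leaves P4 with a single library. Lama1, the alpha chain of early laminins and of the inner limiting membrane, had its highest promoter values at P4 (chr17:67696797-67697715), with 11.9 and 7.14 RPKM at P4, 1.96 and 6.86 at P10, and 2.57, 3.34 and 4.7 at P28. Both P4 libraries lay above the other 5, but the change of -1.20 (SE 0.46) missed the threshold (limma adjusted p = 0.060). It passed under each of the 3 other scalings (changes of -2.59, -1.72 and -2.84), and on reads with voom.

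Lamb3, a beta chain of epithelial laminin, had 1.38 and 0.908 RPKM at P4, on 3 reads, and 4.39, 6.36 and 6.57 at P28, which missed the threshold (change 1.65, SE 0.47, limma adjusted p = 0.019). Lama5, the broadly used alpha chain of mature basement membranes, had 2.38 and 4.17 RPKM at P4 and 4.12, 5.15 and 8.74 at P28, and these groups overlapped (change 0.69, SE 0.43, limma adjusted p = 0.22). Lama2, the alpha chain of muscle and nerve laminin, had 6 and 3.15 RPKM at P4 and 0.693, 2.11 and 2.05 at P28 (limma adjusted p = 0.12). In all, 8 of the 11 laminin genes had a promoter peak, with a median change of 0.52. Lamb1, Lamb2 and Lama4 had peaks only outside promoters. No other laminin promoter passed the test against P4 at either age.

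**Figure D3:**
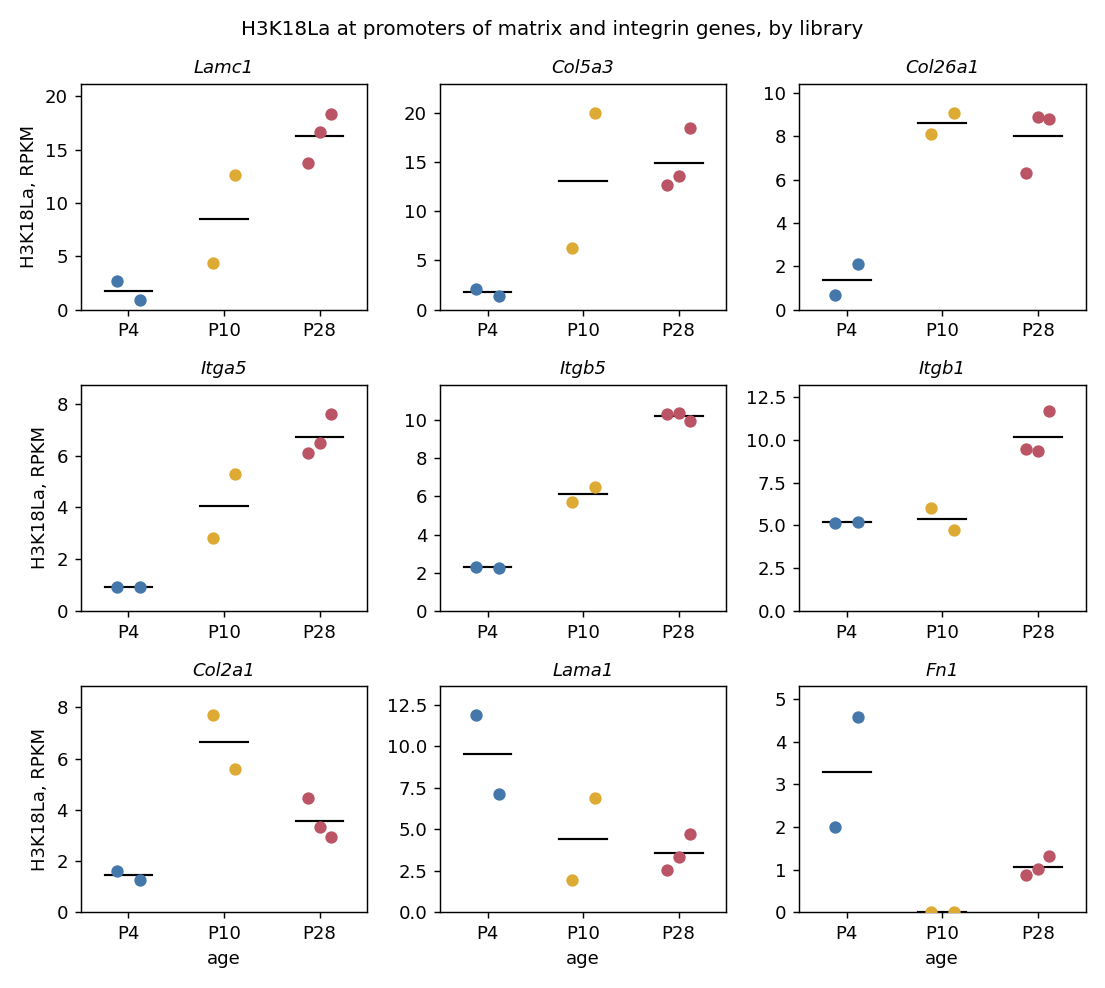
H3K18La at the promoter peaks of 9 genes, in RPKM on axes that start at 0, by age. Each point is a library and each line the mean of an age; Lamc1 runs from 0.87 to 18.4 RPKM with no overlap between P4 and P28, and Lama1 and the upstream of the 2 Fn1 promoter peaks are highest at P4.

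The molecules that join the basement membrane networks showed no rise that passed the test at a promoter. Hspg2 encodes perlecan, a heparan sulfate proteoglycan of all basement membranes. Its promoter (chr4:137467843-137470048) had 0.824 and 0.812 RPKM at P4, 4.09 and 3.93 at P10, and 2.97, 2.87 and 2.43 at P28. The P10 libraries were highest and the P4 libraries lowest, on 7 reads at P4 (P28 against P4 1.04, SE 0.38, limma adjusted p = 0.051). Agrn encodes agrin, which binds laminin and dystroglycan. Of its 2 promoter peaks, the one that stood for the gene had 1.09 and 1.8 RPKM at P4 and 3.63, 4.03 and 5.51 at P28 (limma adjusted p = 0.090). This peak holds the RefSeq start at chr4:156186259 but not the one at chr4:156197488. The 2 peaks had a median change of 1.36, and neither was called at P28 against P4. Fn1 encodes fibronectin, the integrin ligand of vessels and wounds. Its main promoter (chr1:71652437-71653346) had 2 and 4.59 RPKM at P4, no read in either P10 library, and 0.865, 1.01 and 1.33 RPKM at P28.

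Fn1 was called lower at P10 (change -2.03, SE 0.45, limma adjusted p = 0.0072), on 11 reads at P4. That call held only when P10 replicate 1 was left out (adjusted p = 0.0095) and was lost, at up to 0.023, without any other library. At P28 the change of Fn1 was -0.99 (SE 0.41, limma adjusted p = 0.075), and it passed with libraries scaled to reads in peaks (-2.13) or quantile normalized (-2.01). A second promoter peak of Fn1, at a downstream start (chr1:71641201-71642070), had 0 and 1.37 RPKM at P4, on 2 reads, 2.08 and 7.25 at P10, and 1.81, 3.6 and 3.37 at P28 (change 1.32, SE 0.57, limma adjusted p = 0.087). Nid2 encodes a nidogen, a linker of laminin to type IV collagen. Its own promoter stayed between 1.19 and 2.92 RPKM in all libraries (limma adjusted p = 0.51). A second peak at an internal start of Nid2 (chr14:19805231-19805647), singled out after its values were seen, was the only member promoter called lower at P28 against P4, with 2.18 and 4.29 RPKM at P4, none at P10, and 0.59 RPKM in P28 replicate 2 alone. It rested on 5 reads at P4, and the call was lost without P4 replicate 2, P28 replicate 1 or P28 replicate 3 (adjusted p up to 0.022). Nid1, the other nidogen, had no promoter peak.

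The collagen promoter with the highest P28 mean was that of a fibrillar collagen. Col5a3, a chain of type V collagen that regulates fibril diameter, had 2.09 and 1.37 RPKM at P4, 6.24 and 20 at P10, and 12.7, 13.6 and 18.5 at P28 at its promoter (chr9:20814431-20815298). Every P10 and P28 library lay above both P4 libraries. The P28 mean was 8.61-fold the P4 mean, on 6 reads at P4 (change 2.54, SE 0.43, limma adjusted p = 0.0017), and the change at P10 was 2.18 (SE 0.48, limma adjusted p = 0.0069). The 2 comparisons share the P4 libraries. The P28 call was lost without P4 replicate 1, P4 replicate 2, P28 replicate 1 or P28 replicate 3, with adjusted p of 0.0256, 0.0401, 0.0101 and 0.0121. The P10 call was lost without any single library except P10 replicate 1 (adjusted p up to 0.076).

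Col2a1, the chain of cartilage and vitreous fibrils, was highest at P10. Its promoter (chr15:98003578-98004984) had 1.61 and 1.27 RPKM at P4, 7.7 and 5.6 at P10, and 4.48, 3.32 and 2.95 at P28. The 3 ages did not overlap, but neither P10 (change 1.64, limma adjusted p = 0.011) nor P28 (change 0.90, limma adjusted p = 0.071) passed against P4. A downstream start of Col2a1 (chr15:97990215-97990697) was called at P10 (11.2 and 16.3 RPKM against 1.88 and 1.24, change 2.52, limma adjusted p = 0.0015), on 3 reads at P4, and this was lost without P4 replicate 1 or P4 replicate 2 (adjusted p up to 0.014). Col11a2, a partner of type II collagen, had 1.69 and 0.635 RPKM at P4 and 4.89, 4.75 and 6.25 at P28, which missed the threshold (limma adjusted p = 0.016). The classic type I and III collagens, Col1a1, Col1a2 and Col3a1, had no promoter peak.

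No promoter of a basement membrane collagen passed the test. Col4a1 encodes a chain of the universal type IV network, and its peak (chr8:11312122-11313853) also covers the promoter of Col4a2, which is transcribed from the opposite strand. It had 2.36 and 1.38 RPKM at P4, 2.08 and 2.28 at P10, and 1.97, 2.98 and 3.29 at P28. The ages overlapped (change 0.39, SE 0.41, limma adjusted p = 0.46), and the change was negative under all 3 other scalings (-0.74, -0.13 and -0.19). Col18a1, the source of endostatin, had 2 reads at P4, none at P10, and 2.59, 1.9 and 1.07 RPKM at P28 (limma adjusted p = 0.083). This peak (chr10:77089153-77089962) lies at an annotated protein-coding start, but holds neither RefSeq start of Col18a1 (chr10:77113705 and chr10:77166530). None of the 5 promoter peaks of this class was called by limma, with 1 at an unadjusted p under 0.05 at P28 against P4. Of all 17144 promoter peaks, 10811 had such a p in that comparison.

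Among the other collagens, 1 promoter was called. Col26a1, a secreted collagen with an EMI domain, had 0.681 and 2.09 RPKM at P4, 8.12 and 9.06 at P10, and 6.29, 8.91 and 8.8 at P28 (chr5:136881314-136883314). P10 and P28 overlapped and both lay above P4, 5.78-fold at P28 on 10 reads at P4 (change 1.97, SE 0.36, limma adjusted p = 0.0024). At P10 the change was 2.07 (SE 0.40, limma adjusted p = 0.0042). Both calls were lost without P4 replicate 1, P28 replicate 2 or P28 replicate 3 (adjusted p of 0.0109 to 0.0233). The 11 promoter peaks of FACIT collagens, which decorate fibrils, had a median change of 0.40 at P28 against P4 and no call. Of these, 2 had an unadjusted p under 0.05, beside 10811 of all 17144 promoter peaks. Col22a1, a FACIT collagen of tissue junctions, had 4.36, 4.83 and 4.95 RPKM at P28 against 3.36 and 3.31 at P4 (limma adjusted p = 0.36), and its change turned negative under all 3 other scalings (-0.89, -0.13 and -0.62). Col8a1, a network collagen of the corneal Descemet membrane, had 1.58 and 0.829 RPKM at P4 and 3.28, 4.95 and 6.6 at P28 (limma adjusted p = 0.086). The change of Col8a1 passed in 3 of the 15 alternatives. Col13a1, a transmembrane collagen, had 1.24 and 2.71 RPKM at P4 and 3.82, 2.79 and 3.45 at P28 (limma adjusted p = 0.30). Its peak (chr10:61865701-61866800) does not hold the RefSeq start at chr10:61979108.

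At P28 against P4, integrin promoters were called for 1 alpha and 1 beta chain, Itga5 and Itgb5. Itgb5 encodes the beta partner of Itgav, a receptor for vitronectin with which the pigment epithelium binds shed outer segments. Its promoter (chr16:33829231-33830808) had 2.3 and 2.27 RPKM at P4, 5.72 and 6.49 at P10, and 10.3, 10.4 and 9.96 at P28. The ages were fully separated with little spread within an age. P28 was 4.47-fold higher than P4, on 14 reads at P4 (change 1.77, SE 0.29, limma adjusted p = 0.0013). The call was lost without P4 replicate 1 or P28 replicate 2 (adjusted p up to 0.0115). Another start within Itgb5 (chr16:33921650-33922846) had another time course, with 6.83 and 3.49 RPKM at P4, 16.6 and 14.5 at P10 and 3.07, 4.83 and 4.18 at P28 (P10 against P4, limma adjusted p = 0.014).

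Itga5 encodes the alpha chain of the main fibronectin receptor. Its peak (chr15:103350600-103352529) lies at an internal start of a retained-intron transcript, not at the RefSeq start. It had 0.942 and 0.928 RPKM at P4, 2.81 and 5.31 at P10, and 6.12, 6.5 and 7.61 at P28, again without overlap. The change was 2.00 (SE 0.37, limma adjusted p = 0.0024) and the fold 7.21, on 7 reads at P4. This call was lost without any one of the P4 or P28 libraries (adjusted p of 0.011 to 0.0207). Itgb1, the beta chain shared by most laminin, collagen and fibronectin receptors, had 5.17 and 5.19 RPKM at P4, 6.04 and 4.75 at P10, and 9.48, 9.34 and 11.7 at P28. Its P28 libraries lay above all others, yet the change of 0.85 (SE 0.29, limma adjusted p = 0.039) was not called and reversed with scaling to reads in peaks (-0.53) or quantile normalization (-0.65).

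Among laminin receptors, Itga6 was called at P10, with 2.71 and 1.78 RPKM at P4, 10.8 and 11.8 at P10, and 5.68, 6.47 and 6.71 at P28 (P10 change 1.93, SE 0.34, limma adjusted p = 0.0028). That call was lost without P4 replicate 2 or P28 replicate 2 (adjusted p up to 0.015). At P28 the change of Itga6 was 1.18 (limma adjusted p = 0.013). Itga3, which also binds laminin, had 2.88 and 0.946 RPKM at P4 and 5.41, 6.87 and 8.08 at P28 (change 1.49, SE 0.45, limma adjusted p = 0.025). The change of Itga3 passed in 3 of the 15 alternatives. Itgav, the alpha partner of Itgb5, had 1.34 and 2.11 RPKM at P4 and 3.4, 4.06 and 4.89 at P28 (limma adjusted p = 0.19), with a change of 0.91 that became -0.22 with scaling to reads in peaks. Of the 12 integrin alpha promoter peaks, 7 had all P28 libraries above P4 and 2 below, with a median change of 1.03, beside 73.8% and 7.53% of all promoters and their median of 1.26. Of the 6 beta peaks these counts were 3 and 2, with a median of 0.30. Of integrin genes of leukocytes, which were picked without a fixed list, Itgam and Itgb2 had no peak. Itgal, Itgax, Itgad, Itgae and Itgb7 had 2 to 5 peaks each, and of these only Itgal had a promoter peak (change 1.59, on 1 read at P4, limma adjusted p = 0.016). Itga4 and Itgb2l each had 1 promoter peak, with changes of -0.81 and -1.29 and no call. Outside promoters, 1 peak of Itga4 was called lower.

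**Figure D4:**
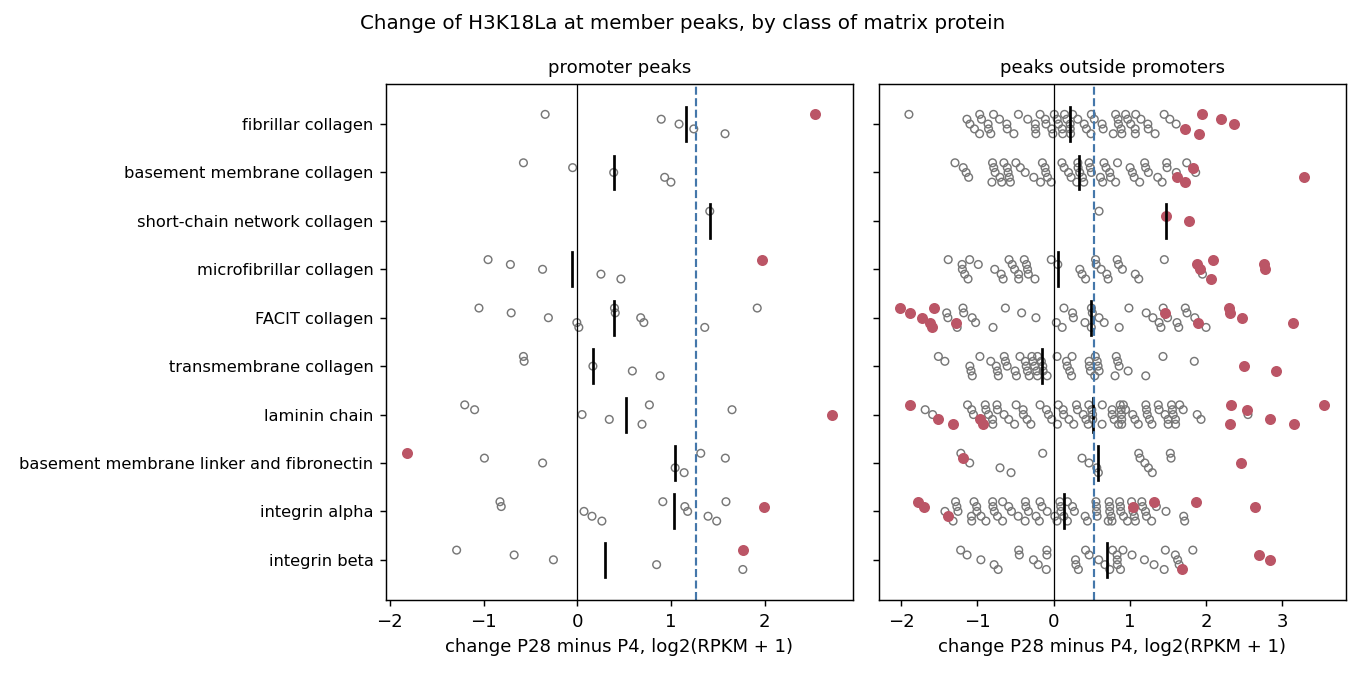
Change of H3K18La between P4 and P28 at each member peak, as a difference of log2(RPKM + 1), by class of protein, in promoters (left) and elsewhere (right). Filled points were called by limma, black ticks are class medians, and the dashed line is the median of all peaks of that kind (1.26 and 0.54); among promoters, only the single peak of the short-chain collagens, at 1.41, has a class median beyond that line.

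Between P4 and P10, 4 member promoters were called higher (Col5a3, Col26a1, Itga6 and the downstream start of Col2a1) and 2 lower (Fn1 and the internal start of Nid2), out of 67. Over all promoters, 12.8% were called higher and 1.86% lower. The split was 1 higher and 8 lower with scaling to reads in peaks, beside 3.6% and 6.8% of all promoters. It was 5 and 3 with median centring, beside 12% and 3.1%, and 1 and 2 with quantile normalization, beside 3.4% and 1.4%. With voom it was 9 and 0, beside 16% and 0.09%. The filter on low values, set on the mean RPKM over all 7 libraries, gave 5 and 0, beside 18% and 0.17% of all promoters that passed it. Both promoters called lower in the main analysis were at the floor of 3 reads at P10. Between P10 and P28, limma called 0 of the 67 member promoters and 0 of the 500 other member peaks, while 17 and 154 of them had an unadjusted p under 0.05. Such a p was reached by 6436 of all 17144 promoters and 28766 of all 91109 other peaks. Over all peaks only 0.00185% were called there. Voom on reads called 0 member promoters higher and 2 lower, beside 4.0% and 1.6% of all promoters. It called 6 other member peaks higher and 28 lower, beside 1.8% and 6.9% of all other peaks. All P28 libraries lay above both P10 libraries at 18 member promoters (26.9%, against 49.1% of all promoters) and below at 11 (16.4%, against 7.99%).

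Outside promoters the set had its own distribution along genes. Introns held 303 of the 567 peaks (53.4%, against 42.0% of all peaks), exons 119 (20.99%, against 6.06%) and intergenic sequence 59 (10.4%, against 32.8%). Collagen genes, which consist of many short exons, held about the same share of the exon peaks (66 of 119) as of all member peaks (315 of 567). The genes with most peaks were Col27a1 and Itga11 with 24 each, Lama3 with 22, and Col13a1 and Col23a1 with 21 each. Of the 500 peaks outside promoters, 39 were called higher and 16 lower at P28 against P4, while 16.6% and 4.84% of all such peaks were called. The counts were 31 and 34 at P10 against P4, beside 11.1% and 8.37%. With scaling to reads in peaks the split at P28 was 16 higher and 73 lower, beside 7.0% and 17% of all such peaks. With median centring it was 27 and 46, beside 12% and 11%, and with quantile normalization 26 and 62, beside 12% and 15%. The shift towards lower calls was thus found over all such peaks too. At P10 the same settings gave 11 and 92, 32 and 52, and 10 and 13. These stood beside 4.5% and 18%, 11% and 12%, and 4.2% and 2.9% of all such peaks. The filter on low values left 35 higher and 1 lower at P28 and 27 and 3 at P10, among fewer peaks tested. This filter used the mean RPKM over all 7 libraries, 3 of them from P28, so it tended to drop peaks that were low at P28. Its few lower calls thus say little about falls. Of all peaks outside promoters that passed the filter, 33% and 0.29% were called at P28 and 22% and 0.35% at P10. The shares of members called higher were smaller at both ages. Voom on reads gave 80 and 47 at P28, beside 27% and 13% of all such peaks. At P10 voom gave 46 and 1, beside 14% and 0.09%.

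The calls outside promoters rested on few P4 reads. Of the 39 peaks called higher, in 23 genes, 26 had 3 reads or fewer in each P4 library and 10 had no P4 read. Of the 16 called lower, in 10 genes, 9 were at that floor at P4 and 10 at P28. At P10 against P4, all 34 peaks called lower were at the floor at P10, and 15 of the 31 called higher were at the floor at P4. The median change of the 500 peaks was 0.32, against 0.54 over all peaks outside promoters, and it became -0.25 when each age at the floor was set to 3 reads per library, against -0.06 for all such peaks.

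The largest single rise outside promoters was in Lamc1. Its 15 other peaks all had a positive change, from 0.89 to 3.55 with a median of 1.60, and 5 were called higher, beside 62.9% positive and 16.6% called higher among all peaks outside promoters. The strongest (chr1:153266614-153267758, first intron) had 2.38 and 0 RPKM at P4, 4.73 and 19.3 at P10, and 16.7, 21.6 and 24.1 at P28 (change 3.55, limma adjusted p = 0.0015). A second peak of that intron (chr1:153280357-153281066) had 0.64 and 0.84 RPKM at P4, 0 and 1.11 at P10, and 11.1, 15.1 and 18 at P28 (change 3.16, limma adjusted p = 0.00057). Its P10 libraries overlapped those of P4. One more (chr1:153325604-153326165) had no read and 1 read in the P4 libraries and 9.8, 9.41 and 8.6 RPKM at P28 (limma adjusted p = 0.0068). Each of these 3 calls was lost without either P4 library, the first also without P28 replicate 1 or 3 and the last without any one P28 library. With a pseudocount of 0.1 all 3 were lost (limma adjusted p of 0.020, 0.023 and 0.072). The first and last were also lost when scaled to reads in peaks (limma adjusted p of 0.016 and 0.036) and with a batch term (0.011 and 0.036).

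Col26a1, Itgb5 and Col19a1 had, respectively, 4 of 10, 2 of 14 and 4 of 14 peaks outside promoters called higher, beside the 16.6% of all such peaks. The nearest peak upstream of Col26a1 (chr5:136884279-136885771) had 0.304 and 0.799 RPKM at P4, 14.5 and 12.7 at P10, and 8.61, 9.22 and 10.6 at P28. This call (change 2.77, limma adjusted p = 0.00026) held under all 15 alternatives, as did that of an Itgb5 peak annotated to a 5′ UTR (chr16:33897518-33899868). The latter had 0.773 and 0.508 RPKM at P4, 3.84 and 7.38 at P10 and 9.37, 10.1 and 12.9 at P28, 16.8-fold higher than P4 on 6 reads (change 2.84, limma adjusted p = 0.00042). Col19a1, a collagen of basement membrane zones, had 4 peaks called higher towards the 3′ end and 1 intron peak called lower. The 3′ UTR peak (chr1:24279045-24280813) had 1.03 and 1.01 RPKM at P4, 1.02 and 11.1 at P10, and 12.3, 18.6 and 20.9 at P28 (change 3.15, limma adjusted p = 0.0035). The P10 libraries differed from each other there, and the call was lost without any one of the P4 or P28 libraries (adjusted p up to 0.062). Col4a3, a type IV chain of specialised basement membranes, had an exon peak (chr1:82688541-82690125) at 0.287 and 0.376 RPKM at P4 and 10.1, 12.9 and 13.2 at P28 (limma adjusted p = 0.00081), which fell below the threshold without either P4 library (adjusted p up to 0.021). An intron peak of the transmembrane collagen Col23a1 (chr11:51370353-51370798) had no P4 read and 6.47, 5.65 and 7.74 RPKM at P28 (limma adjusted p = 0.0044), and this call too was lost without any one of the P4 or P28 libraries (adjusted p up to 0.055).

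Of the 16 peaks called lower, Col22a1 held 4, Lama2 3 and Col14a1 2, beside the 4.84% of all such peaks that were called lower. Col14a1, a FACIT collagen, had 4 peaks outside its promoter with a median change of -1.23, and its 2 called intron peaks rested on 2 and 4 reads at P4. Of the 19 Col22a1 peaks outside its promoter 4 were called lower and 1, upstream of the gene, higher, with a median change of -1.02. The intron peak at chr15:71916172-71917046 had 3.12 and 3.41 RPKM at P4, none at P10, and 0, 0.773 and 0.197 at P28 (change -1.73, limma adjusted p = 0.0026). The one at chr15:71958401-71959094 had 5.89 and 3.44 RPKM at P4, 0 and 1.14 at P10, and 0, 0.709 and 0.498 at P28 (change -2.02, limma adjusted p = 0.0084). A further one (chr15:71880215-71880463) had 4 reads over both P4 libraries, none at P10, and 1.05 RPKM in P28 replicate 1 alone (limma adjusted p = 0.0063). These 3 calls were lost without either P4 library and without at least 2 of the 3 P28 libraries (adjusted p up to 0.0659). They are the reverse of the upstream peak of the same gene, which rose from 2.32 and 1.27 RPKM to 7.69, 9.63 and 10.6.

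Lama2 had 3 of 9 such peaks called lower and a median of -0.93. Its peak at chr10:27178090-27178926 had 2.17 and 4.28 RPKM at P4, 0 and 0.942 at P10, and 0, 0.367 and 0 at P28 (change -1.88, limma adjusted p = 0.0044). Near Itga11, which encodes a collagen receptor of fibroblasts, an intergenic peak (chr9:62613056-62614317) fell from 6.12 and 4.73 RPKM to 0.832, 1.27 and 0.547 (change -1.78, limma adjusted p = 0.0083), on 27 reads at P4. Another 2 intergenic peaks assigned to Itga11 rose. The calls of the Lama2 peak at chr10:27178090-27178926 and of the falling Itga11 peak were each lost without any one of the P4 or P28 libraries.

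**Figure D5:**
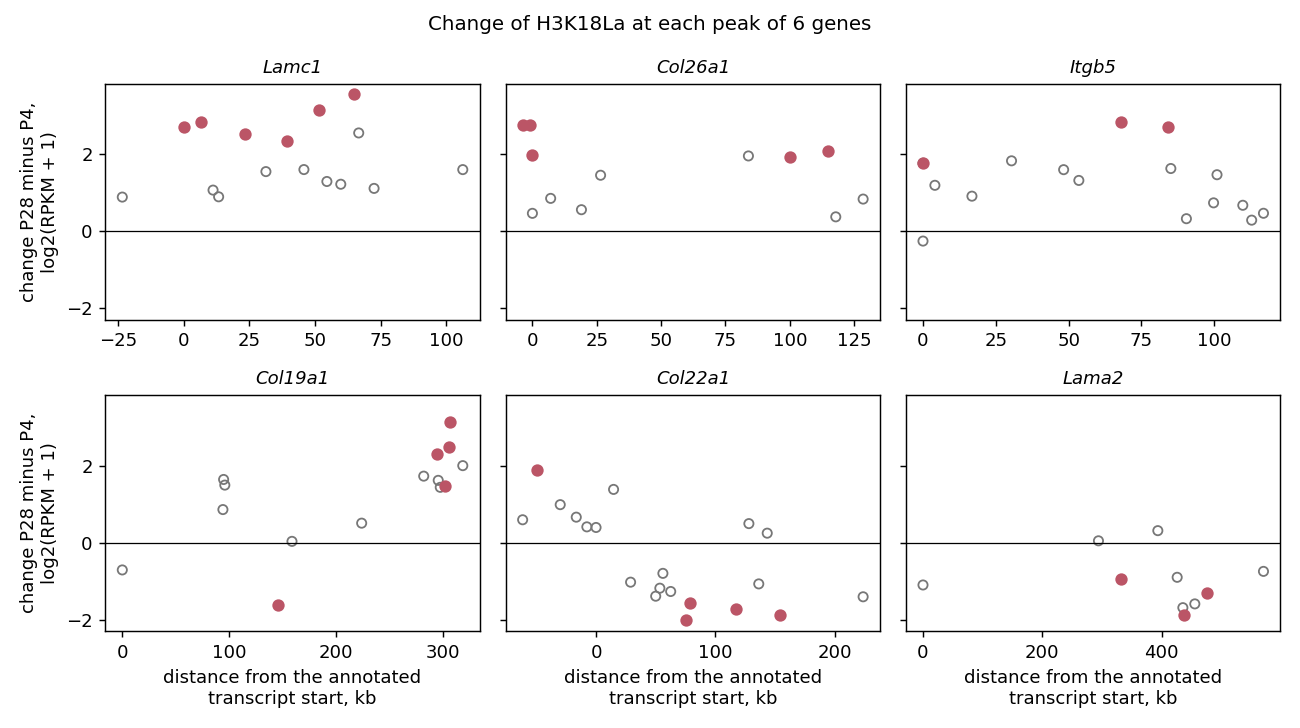
Change of H3K18La from P4 to P28 at every peak of 6 genes, as a difference of log2(RPKM + 1), against the distance from the annotated transcript start in kilobases. Filled points were called by limma; all 16 Lamc1 peaks lie above 0, while the called peaks within Col22a1 and Lama2 lie below 0, down to -2.02.

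The sequence of the member promoters was compared with that of promoters at large, as a description. Their median GC content was 57.5%, the same as for all promoter peaks, and their median ratio of observed to expected CpG was 0.48, against 0.60. The GC box was found on either strand in the central 300 bases of 37.3% of member promoter peaks and 44.8% of all promoter peaks. Of the other motifs searched there on both strands, CCGGAAG was held by 1.49% and 8.74% of member and of all promoter peaks, CACGTG by 2.99% and 6.45%, TGANTCA by 10.4% and 5.02%, TATAAA by 4.48% and 5.31% and TAATCC by 5.97% and 6.95%. Across the 67 member promoters, which share libraries and depth, the change from P4 to P28 had a Pearson correlation of 0.15 with GC content and 0.29 with peak width, beside 0.10 and 0.25 across all promoters. Of the 67, 2 overlapped the promoter of another protein-coding gene (Col4a1 with Col4a2, and Col4a4 with Col4a3), and 13 lay only at starts of transcripts of their gene that are not annotated as protein coding.

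Genes that act with the matrix, taken from fixed lists of promoters, were called at P28 against P4 in shares to be read beside the 31.3% of all promoters. Of the adaptors that link integrins to actin, 15 of 17 had a promoter peak, 5 rose and none fell. Paxillin, Pxn, a scaffold of focal adhesions, went from 0.333 and 0.875 RPKM at P4 to 12.5, 15.7 and 15.6 at P28 (limma adjusted p = 0.00019). In the dystroglycan complex, the other laminin receptor, 7 of the 15 genes with a peak (21 listed) rose and none fell. Egflam, the dystroglycan ligand pikachurin of the photoreceptor synapse, went from 3.74 and 3.88 RPKM to 28.1, 29 and 35.2 (limma adjusted p = 0.00013). Of the genes of collagen and matrix processing, which are enzymes, a chaperone and enhancer proteins, 6 of the 19 with a peak rose, among them Adamts3, a procollagen peptidase, from 2.74 and 1.08 RPKM to 23.6, 27.1 and 32.6 (limma adjusted p = 0.00015).

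Of the matrix proteases and their inhibitors, 5 of 12 rose, among them Mmp9, a gelatinase, from 1 P4 read to 8.91, 11.4 and 10.8 RPKM (limma adjusted p = 0.00088), a call lost without either P4 library (adjusted p up to 0.022). Other matrix genes of the retina rose in 5 of 15 cases. They included Impg1, of the matrix between photoreceptors, from 3.3 and 5.29 RPKM to 21.6, 24 and 29.2 (limma adjusted p = 0.00037). The change of Impg1, 2.31, was 0.94 with scaling to reads in peaks and 0.87 with quantile normalization. Its call was lost in 2 of the 15 alternatives. None of these 5 lists had a promoter called lower. The lists' median changes were 1.25, 1.71, 1.15, 1.24 and 0.40, in the order given here.

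Markers of retinal and other cell types are given beside these results. All 10 photoreceptor marker promoters rose, with summed levels of 26.2 and 32.8 RPKM at P4 and 171 to 241 at P28. Of the Mueller glia markers, 9 of 10 had a promoter peak and only Glul rose, with sums of 16.5 to 16.8 RPKM at P4 and 33.7 to 40.2 at P28. Their share of promoter reads, which does not depend on scaling, went the other way, from 0.0522% and 0.0594% at P4 to between 0.0370% and 0.0424% at P28. Endothelial markers, of cells that build vessel basement membrane, had 6 of 10 promoters with a peak and sums of 13.4 and 16.2 RPKM at P4 against 7.80 to 8.77 at P28. Erg fell (limma adjusted p = 0.0044, on 5 reads at P4) and the defining markers Pecam1, Tie1 and Tek had no promoter peak. Astrocyte markers, of 5 listed, had 3 with a peak, sums of 7.88 and 8.44 RPKM at P4 and 5.06 to 6.98 at P28, and no call. Of the 8 pericyte and smooth muscle markers, 2 had a peak and Notch3 rose (limma adjusted p = 0.0031), with sums of 1.24 and 2.54 RPKM at P4 and 8.06 to 9.67 at P28. The calls of Glul, Erg and Notch3 were each lost without at least 4 of the P4 and P28 libraries (adjusted p up to 0.093). None of the 10 microglia and leukocyte markers had a promoter peak. Of the pigment epithelium markers, 3 of 8 had one and none was called, with sums of 3.98 and 6.85 RPKM at P4 and 6.18 to 6.89 at P28, and Rpe65 had no promoter peak. Of the lens markers, 5 of 9 had one and none was called, with sums of 9.94 and 9.95 RPKM at P4 and 11.7 to 16.1 at P28. The share of promoter reads was lower at P28 for the lens list (0.0197% and 0.0217% at P4, 0.00824% to 0.00919% at P28) and for the pigment epithelium list (0.00811% and 0.0130%, then 0.00397% to 0.00470%). It was also lower for the endothelial list (0.0243% and 0.0318%, then 0.00386% to 0.00402%) and the astrocyte list (0.0174% and 0.0220%, then 0.00334% to 0.00411%). It was higher for photoreceptors (0.161% and 0.190%, then 0.297% to 0.329%) and overlapped for pericytes (0.00464% and 0.00724%, then 0.00532% to 0.00824%). The part of such cell types in the changes of the matrix genes was not tested.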

How the data were processed

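H3K18La CUT&Tag libraries of mouse retina were processed by the authors with nf-core/cutandrun on GRCm38. Peaks called by MACS with a -log10 q above 6 in at least 2 replicates were merged and annotated with ChIPseeker 1.34.1, with promoters from 1000 bases before to 500 after a start. The authors deposited RPKM values per peak and library, scaled by csaw factors from windows of 10000 bases. Their table of fold changes and p-values from edgeR 3.40.2 was not used.

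From the RPKM steps, whole reads were recovered for 100% of values within 0.01 reads. Their depth ran from 199970 to 8274373 reads in peaks, which covers counting error only, since reads carried no molecular identifiers. The main test was limma 3.58.1 (R 4.3.3, with a trend) on log2(RPKM + 1), fitted to all 7 libraries, with Benjamini-Hochberg adjustment over 108253 peaks and a threshold of 0.01. No peak was filtered out. In a run on simulated data for P28 against P4, reads were drawn with counting error alone. A single large fold was put into 200 of 108253 peaks, all above the median level. Of these 200, 115 were recovered, and 0 unchanged peaks were called. Between real replicates, chi-square per degree of freedom ran from 1.24 to 3.70, above counting error alone. The simulation therefore does not give the error rate of calls in these data. An age was at the floor where each of its libraries had 3 reads or fewer. 0 per-sample columns were left unused. Python 3.11.15 was used for the tables.

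Alternatives were a pseudocount of 0.1, a filter at the median of the mean RPKM, 3 other scalings and voom on reads. Others were a batch term, a replicate block and each library left out. A floor of 3 reads was added after seeing the data. The filter's mean was over all 7 libraries, so it tended to drop peaks low at P28. Only P28 replicate 1 carries the batch term, and only P28 replicate 3 the block's term for replicate 3. At P28 against P4 these 2 alternatives gave the same median changes of member promoters (0.55 and 0.44) as fits without those libraries. Named were the genes with called promoters, the highest P28 mean of each class, basement membrane and retinal matrix genes, the 8 largest rises and 5 largest falls outside promoters, and the 5 genes with most peaks. The promoter peak nearest the start stood for a gene, with protein-coding transcripts preferred. Col2a1's downstream start, the Fn1, Nid2 and Itgb5 internal starts, Itga6, Itgal, Col11a2, Lama2, Lamb3, Col14a1, Col22a1's upstream peak and the 2 rising Itga11 peaks were named after their values were seen. Members and lists were chosen with earlier results of these data known.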

Additional observations from a re-analysis of the deposited data

How the results depend on the processing

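Calls depended on the scaling, the test and single libraries, and the causes were not tested. At P28 against P4, 25041 of all peaks were called in the main analysis, 81.8% of them higher. With a pseudocount of 0.1 this count was 15397 (90.0%), with the filter 19558 (99.3%) and scaled to reads in peaks 24005 (32.3%). With median centring it was 24896 (56.9%), with quantile normalization 28319 (48.3%), with voom 44945 (72.7%) and with a batch term 14391 (83.1%). The member counts below are to be read beside these. Member promoters called at P28 against P4 numbered 6 in the main analysis, beside 31.3% of all promoters called higher and 0.83% lower. They numbered 11 with quantile normalization (17.1% and 5.2%), 18 with voom (48.9% and 3.1%) and 3 with a batch term (17.0% and 0.41%). Without 1 P28 library they numbered 2 to 3, with 12.9% to 17.4% of all promoters called higher. Fits without a P4 or P10 library leave that age a single library, so their counts are left out here. At P10 against P4 there were 6, and 3 with a pseudocount of 0.1, 3 with quantile normalization and 1 to 13 with 1 library left out. Between P28 and P10 there were 0, and 1 with median centring (1.2% and 0.58% of all promoters) and 2 with voom (4.0% and 1.6%). Without 1 P28 library there were 0 here, as over all promoters. Other member peaks called at P28 against P4 numbered 55, and 32 with a pseudocount of 0.1, 36 with the filter, 89 scaled to reads in peaks, 88 with quantile normalization, 127 with voom, 25 with a batch term and 11 to 122 with 1 library left out. At P10 against P4 there were 65 (11.1% and 8.4% of all such peaks), 30 with the filter (22% and 0.35%) and 103 scaled (4.5% and 18%). Quantile normalization gave 23 (4.2% and 2.9%), a batch term 38 (6.9% and 6.0%) and leaving out 1 P28 library 18 to 37 (4.9% to 6.9% called higher). Between P28 and P10 there were 0, and 5 with a pseudocount of 0.1, 6 with median centring, 34 with voom and 0 to 71 with 1 library left out. The median change of member promoters (0.47) was 0.82 with a pseudocount of 0.1, 1.00 with the filter, -0.57 scaled, -0.057 centred, -0.30 with quantile normalization, 0.65 with voom and 0.38 to 0.55 with 1 library left out. That of other peaks (0.32) was 0.52 with a pseudocount of 0.1, 0.84 with the filter, -0.71 scaled, -0.20 centred, -0.29 with quantile normalization and 0.28 to 0.39 with 1 library left out. With the floor at 3 reads, added after seeing the data, the medians were 0.34 and -0.25. The difference of the share of reads was -0.19 percentage points (P28 minus P4), -0.17 with the filter and -0.19 to -0.18 with 1 library left out. Reversed when scaled to reads in peaks were Itgav (-0.22), Lama5 (-0.59), Col4a1 (-0.74), Itgb1 (-0.53), Col13a1 (-0.54), the Col22a1 promoter (-0.89) and Col2a1 (-0.18). Reversed with quantile normalization were Lama5 (-0.34), Col4a1 (-0.19), Itgb1 (-0.65) and the Col22a1 promoter (-0.62), and with median centring Col4a1 (-0.13) and the Col22a1 promoter (-0.13). Samples with the same replicate number did not deviate together (correlations from -0.001 to 0.0469), so the numbers do not pair them. With a replicate block, 5 member promoters were called at P28 against P4, beside 18% of all promoters called higher and 0.46% lower. At P10 against P4 there were 5, beside 10.8% and 1.3%. Of the other member peaks 33 and 50 were called, beside 10.1% and 3.1%, then 9.3% and 6.8%, of all such peaks.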
